A study of Mus musculus with 4 samples.

Results

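The genes described are 10 mouse genes of glucose uptake and glycolysis, Slc2a1, Hk2, Pfkl, Pfkfb3, Aldoa, Gapdh, Pgk1, Eno1, Pkm and Ldha, in single cells of gingiva with and without experimental periodontitis. They were taken by symbol from 31205 gene symbols in the single-cell tables, and all 10 were found. Their level is given as CPM, the count of unique molecular identifiers (UMIs, 1 per captured RNA molecule) scaled to the total of a cell class, with the cells of each class summed within a library.

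Gingiva of 4 groups was profiled, each as 1 library. The genotypes are labelled Itga9-Lyz2-cKO (cKO below) and Itga9-Lyz2-cHet (cHet below), and each was studied with periodontitis (PD) and as a control. PD was set up with a silk ligature and Porphyromonas gingivalis at an upper molar, and gingiva was taken after 14 days. The order used here is cKO PD, cHet PD, cKO control and cHet control. Itga9 encodes integrin alpha 9, and Lyz2 encodes lysozyme, a gene whose promoter is widely used to drive Cre recombinase in macrophages, monocytes and neutrophils. No group had unmodified alleles: both genotypes carry the Lyz2 and Itga9 labels. The alleles behind the labels, the age of the mice, what the controls underwent and the number of animals behind each library are not given in the sources used here. Because each group is 1 library, differences between groups could not be checked against replicates, and p-values are left out.

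Glycolysis turns glucose into pyruvate in the cytosol, with a net yield of ATP that needs no oxygen. Glucose enters the cell through facilitative transporters such as the product of Slc2a1 (GLUT1) and is trapped by hexokinases. Phosphofructokinase sets much of the pace, and lactate dehydrogenase regenerates the NAD that the pathway consumes. Activated macrophages and neutrophils lean on this route, and the hypoxia-inducible factor HIF-1, whose oxygen-controlled subunit is encoded by Hif1a, is a known activator of most of its genes. By role, Slc2a1 takes glucose up and Hk2 phosphorylates it. Pfkl is the liver-type subunit of phosphofructokinase, and Pfkfb3 makes the fructose bisphosphate that activates that enzyme. Aldoa splits the hexose, Gapdh oxidises the resulting triose phosphate, Pgk1 makes ATP from it, Eno1 forms phosphoenolpyruvate, Pkm makes ATP and pyruvate, and Ldha converts pyruvate to lactate.

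The promoters of 6 of the genes are shown because the genes moved in opposite directions with PD while most promoters held the same short motif. Each line gives the 250 bases before a RefSeq transcription start (GRCm38.p6), read 5′ to 3′ on the gene's strand. Capitals mark ACGTG or GCGTG on either strand (CACGT or CACGC as printed when on the other strand), the core letters to which HIF-1 is known to bind. Overlapping copies appear where CACGTG stands, since that E-box reads ACGTG on both strands. The windows lie at chr4:119108495-119108744 (plus strand) for Slc2a1, chr6:82774455-82774704 (minus) for Hk2 and chrX:106186850-106187099 (plus) for Pgk1. Those of Ldha, Gapdh and Pfkl lie at chr7:46845554-46845803 (plus), chr6:125165774-125166023 (minus) and chr10:78009808-78010057 (minus).
Slc2a1: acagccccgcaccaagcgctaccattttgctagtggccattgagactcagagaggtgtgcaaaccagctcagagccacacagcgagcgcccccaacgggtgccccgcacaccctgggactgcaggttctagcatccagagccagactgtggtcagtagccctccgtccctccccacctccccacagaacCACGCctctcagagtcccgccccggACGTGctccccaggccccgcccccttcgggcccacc
Hk2: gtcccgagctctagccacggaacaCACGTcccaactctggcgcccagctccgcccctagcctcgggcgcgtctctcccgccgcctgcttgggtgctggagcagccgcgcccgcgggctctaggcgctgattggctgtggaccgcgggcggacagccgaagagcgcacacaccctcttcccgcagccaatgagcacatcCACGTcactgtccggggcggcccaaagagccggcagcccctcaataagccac
Pgk1: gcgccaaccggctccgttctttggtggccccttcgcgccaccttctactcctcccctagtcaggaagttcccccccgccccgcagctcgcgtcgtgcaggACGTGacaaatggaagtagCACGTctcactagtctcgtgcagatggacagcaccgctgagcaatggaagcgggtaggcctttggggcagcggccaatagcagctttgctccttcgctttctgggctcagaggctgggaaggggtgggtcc
Ldha: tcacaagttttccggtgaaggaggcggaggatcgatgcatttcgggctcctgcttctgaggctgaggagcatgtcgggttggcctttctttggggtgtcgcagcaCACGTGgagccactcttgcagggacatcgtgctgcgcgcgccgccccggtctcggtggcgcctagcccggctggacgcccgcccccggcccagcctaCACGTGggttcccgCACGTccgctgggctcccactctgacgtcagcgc
Gapdh: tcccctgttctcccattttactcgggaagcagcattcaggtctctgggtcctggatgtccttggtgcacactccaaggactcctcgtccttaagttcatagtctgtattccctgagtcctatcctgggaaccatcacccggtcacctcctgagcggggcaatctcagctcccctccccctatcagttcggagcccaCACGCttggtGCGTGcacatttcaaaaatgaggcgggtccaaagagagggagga
Pfkl: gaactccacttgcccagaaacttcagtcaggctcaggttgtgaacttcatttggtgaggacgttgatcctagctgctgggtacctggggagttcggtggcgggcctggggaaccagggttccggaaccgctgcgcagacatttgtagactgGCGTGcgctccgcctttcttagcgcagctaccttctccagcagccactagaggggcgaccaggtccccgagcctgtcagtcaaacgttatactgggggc

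All 10 genes had at least 1 RefSeq start whose window held ACGTG or GCGTG, and 15 of their 17 windows did. Among 32851 RefSeq promoter windows of the same length, 38.6% held either motif and 16.7% held it at 2 or more places, as did 8 of the 17 windows of these genes. Overlapping windows of Aldoa and of Eno1 hold the same sites, so these counts of windows include some sites more than once. Slc2a1, Hk2, Pgk1 and Gapdh each showed 2 places and Pfkl 1, while the first Ldha window showed 5, of which 4 come from its 2 CACGTG boxes. Gapdh and Pfkl, which were lower in PD epithelium, and Hk2 and Ldha, which were higher there, all carried the letters. A match describes the sequence only, not a bound site.

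The deposited tables held 6684 barcodes for cKO PD, 9072 for cHet PD, 9331 for cKO control and 8767 for cHet control, with 21368197, 36231795, 62914870 and 58702911 UMIs. After filters of at least 200 genes and at most 20% mitochondrial UMIs, 6595, 8967, 7673 and 7915 cells remained in that order. The lowest UMI total of a barcode was 500 in both PD libraries and 1501 in both control libraries, so the control libraries hold no shallow cells, and results were also computed with a common floor of 1501. Pairs of libraries shared 65 to 116 barcode sequences. Itga9 was lower in cKO than in cHet phagocytes, at 20.4 CPM in cKO PD, 95.2 in cHet PD, 44.2 in cKO control and 125 in cHet control (9, 96, 18 and 45 UMIs). Whether those UMIs fall in the deleted stretch is not given. Over all kept cells Itga9 had 9.23, 7.11, 7.73 and 6.18 CPM in that order. In fibroblasts it had 43.2, 14.0, 39.2 and 76.1 CPM, so it also differed between libraries there, in both directions.

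Cells were put into classes by marker genes, and the classes compared were those with at least 40 cells in both libraries. Mononuclear phagocytes numbered 107 in cKO PD, 200 in cHet PD, 59 in cKO control and 48 in cHet control. Neutrophils numbered 759 and 672 in the cKO and cHet PD libraries and only 25 and 36 in the cKO and cHet controls, so they were compared between the PD libraries alone. Epithelial cells made up 63.5% of the cKO PD cells, 68.0% of cHet PD, 87.0% of cKO control and 90.6% of cHet control. Each class compared held UMIs of all its own markers in each library. RNA from other cells was present too: Krt14, a keratin of basal epithelium, reached 1.94% to 7.38% of its epithelial level in the 20 non-epithelial class sums.

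The levels of the 10 genes differed between classes, and the order of classes was not the same for every gene. Their summed level in phagocytes was 2340 CPM in cKO PD, 3035 in cHet PD, 1471 in cKO control and 1738 in cHet control. In epithelium the sum was 3308, 2695, 3089 and 2973 CPM in the same order of libraries. Fibroblasts had sums of 1462, 1570, 1316 and 1299 CPM and endothelium 1303, 1686, 1625 and 1462 CPM in that order. Neutrophils of cKO PD summed to 3134 CPM and those of cHet PD to 2020 CPM. T and NK cells summed to 1521 CPM in cKO PD, 1745 in cHet PD and 1700 in cKO control. Pericytes and smooth muscle summed to 1349 CPM in cKO PD, 1537 in cHet PD and 1609 in cKO control. The sums serve to set classes and libraries side by side, not genes.

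Cells with gland and airway markers are left out of the orders that follow and are described last. Among the other classes of at least 40 cells, epithelium led in all 4 libraries for Pgk1, at 825 CPM in cKO PD, 663 in cHet PD, 493 in cKO control and 470 in cHet control. Pfkl also had its highest value in epithelium in every library, at 12.4, 8.80, 33.8 and 38.0 CPM in that order. Its epithelial interval overlapped that of neutrophils in cHet PD, where they had 8.25 CPM from 6 UMIs. It also overlapped that of T and NK cells in all 3 libraries that held both (10.2 CPM from 1 UMI in cKO PD). The intervals of phagocytes and of endothelium lay wholly below it in 2 of 4 libraries each. Pfkfb3 had the opposite pattern: epithelium had the lowest value in every library, at 19.3, 21.5, 5.71 and 3.98 CPM. Its interval there overlapped that of T and NK cells in both PD libraries (40.8 CPM from 4 UMIs in cKO, 29.0 CPM from 9 in cHet). In PD the highest Pfkfb3 level was endothelial, at 169 CPM in cKO and 486 CPM in cHet, with neutrophils next at 129 and 382 CPM. The intervals of these classes overlapped in cKO PD. In the controls its highest level was in phagocytes, at 260 CPM in cKO and 170 CPM in cHet, where the interval overlapped that of endothelium (133 CPM). Hk2 was lowest in endothelium in every library, at 12.6, 30.8, 10.1 and 9.20 CPM, and its Poisson interval there lay wholly below that of phagocytes in all 4 libraries. Ldha reached its highest level among these classes in cKO PD neutrophils, at 1022 CPM. Slc2a1 had no fixed order: the top class of these was epithelium in cKO PD (124 CPM), phagocytes in cHet PD (286 CPM), endothelium in cKO control (169 CPM) and phagocytes in cHet control (69.5 CPM), where its intervals overlapped those of epithelium (59.8 CPM) and endothelium (53.7 CPM).

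**Figure D1:**
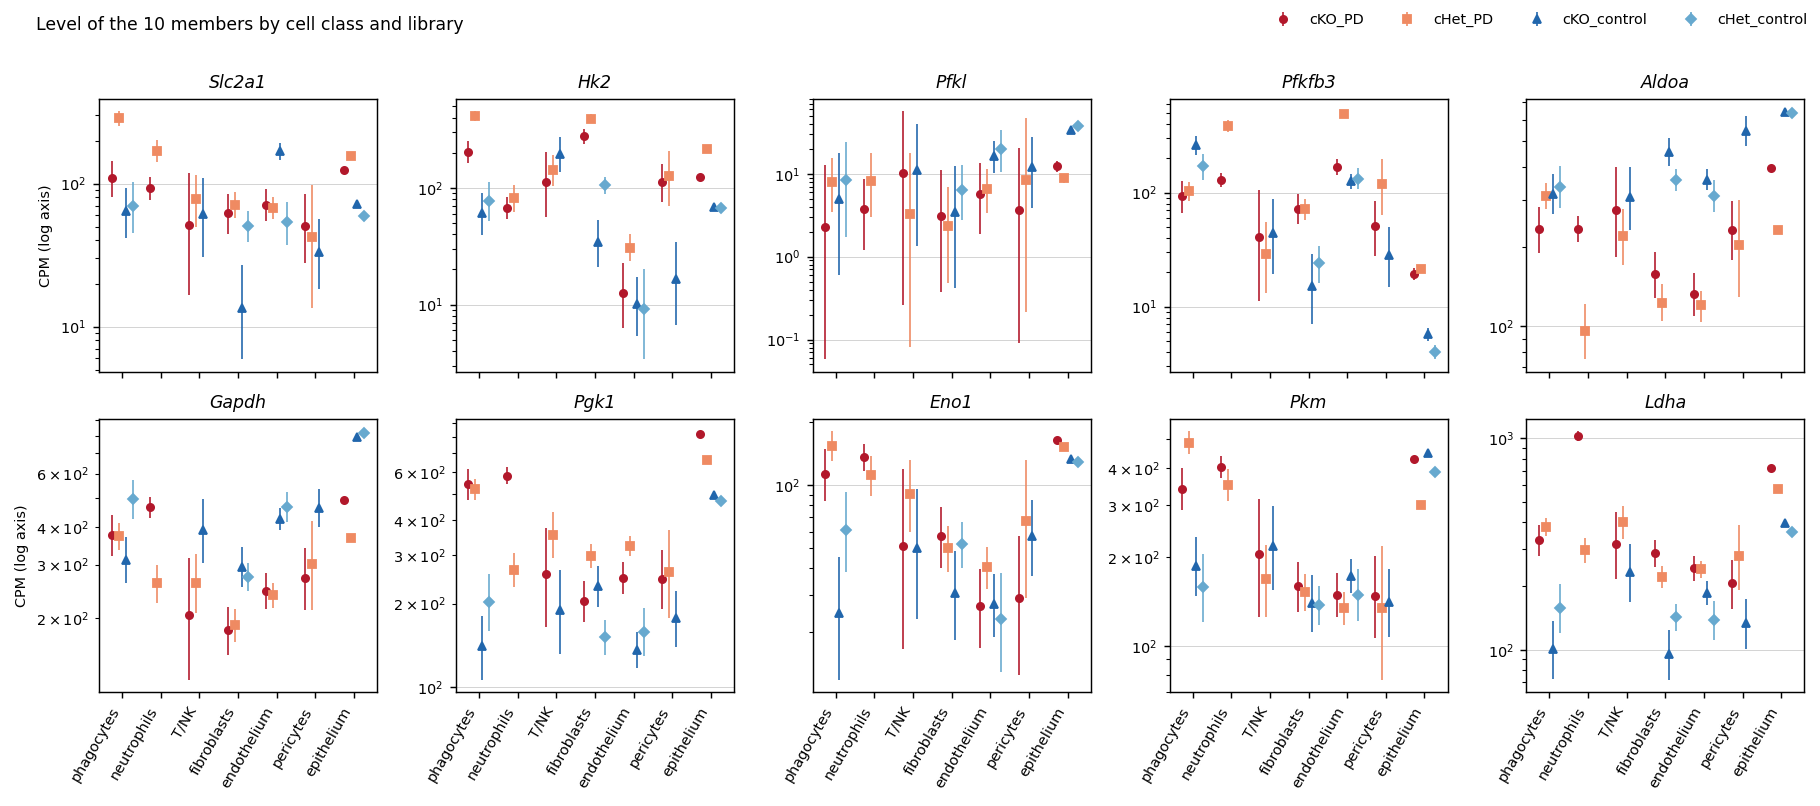
Level of each of the 10 genes in CPM (log axis) by cell class, with 1 point per library and its exact 95% Poisson interval, for 7 classes where they have at least 40 cells, without gland and airway cells. Of the classes drawn, Pfkfb3 has its lowest value in epithelium in every library (3.98 to 21.5 CPM), while Pgk1 is highest there (470 to 825 CPM). In PD the Pfkfb3 intervals of epithelium overlap those of T and NK cells.

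The first comparison asked what PD did to these genes within each genotype. A gene was called higher or lower in a class where the fold was at least 1.5 after adding 10 CPM to both values, the library with more UMIs held at least 50, and the exact 95% interval of the ratio excluded 1. That interval covers counting error only, not differences between animals. The share of all measured genes called in the same way is the background against which each count is read. In 5 classes of cKO, 13 gene and class pairs were called higher and 10 lower with PD, of 33 measured (a measured pair reached 50 UMIs in at least 1 of the libraries). In 4 classes of cHet, 19 were called higher and 7 lower of 37 measured. A pair can thus count as measured through its higher library alone, and the background genes passed the same rule.

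In phagocytes most measured members were called higher. In cKO, 5 of 8 measured genes were called higher in PD and 1 lower, where 31.0% of 2084 genes were called higher and 24.6% lower; the median log2 fold was 1.21 over the measured members and 0.18 over all genes. In cHet, 6 of 9 were called higher and 1 lower, against backgrounds of 25.9% and 18.8% of 3210 genes, with medians of 1.22 and 0.11. Some members reached 50 UMIs in PD only: Hk2, Eno1 and Ldha in cKO (25, 10 and 41 in control). In cHet these were Slc2a1, Hk2 and Eno1 (25, 28 and 22 in control). The class held 1008199 UMIs in cHet PD and 359705 in cHet control, which makes that route easier in PD. Hk2 stood at 204 CPM in cKO PD, 413 in cHet PD, 61.4 in cKO control and 77.8 in cHet control, so both PD libraries were above both controls. Its ratio of PD to control was 3.32 in cKO (95% interval 2.11 to 5.40) and 5.30 in cHet (3.61 to 8.08). Pgk1 stood at 541 CPM in cKO PD, 520 in cHet PD, 140 in cKO control and 203 in cHet control, again without overlap of PD and control. Its ratio was 3.87 in cKO (2.89 to 5.26) and 2.56 in cHet (2.0 to 3.32). Eno1, Pkm and Ldha were called higher in both genotypes as well. Ldha had 329 CPM in cKO PD, 382 in cHet PD, 101 in cKO control and 158 in cHet control, ratios of 3.26 and 2.41 in cKO and cHet. Pkm had 340 CPM in cKO PD, 487 in cHet PD, 187 in cKO control and 158 in cHet control. With cells thinned to 1000 UMIs all 6 cKO calls in phagocytes, Pfkfb3 included, were lost, with log2 folds in the same direction (Hk2 2.48, Pgk1 2.34, Eno1 2.24, Ldha 1.06, Pkm 0.69 and Pfkfb3 -0.65). Eno1 in cKO, with 50 UMIs in PD and so at the minimum, lost its call in 6 alternatives, at log2 folds of 1.82 or more.

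Slc2a1 and Pfkfb3 stood apart from that group in phagocytes. Slc2a1 had 109 CPM in cKO PD, 286 in cHet PD, 63.9 in cKO control and 69.5 in cHet control, so cHet PD was high and the other 3 libraries lay closer together. The ratio was 4.11 in cHet (2.73 to 6.46), and in cKO the pair stayed under 50 UMIs (48 in cKO PD, 26 in cKO control) and was not called. Pfkfb3 was lower in PD in both genotypes, with 92.9 CPM in cKO PD, 103 in cHet PD, 260 in cKO control and 170 in cHet control. Its ratios were 0.357 in cKO (0.243 to 0.516) and 0.608 in cHet (0.439 to 0.849), and under trimmed-mean scaling the log2 fold in cHet was -0.34 and no longer called. That scaling moves cHet phagocyte ratios up by 0.35 on the log2 scale, and folds with 10 CPM added by somewhat less. Aldoa (233 CPM in cKO PD, 311 in cHet PD, 317 in cKO control, 336 in cHet control) and Gapdh (376, 372, 312 and 495 CPM) were not called. Pfkl held 1 to 8 UMIs in these cells and could not be compared.

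Other values moved with PD in phagocytes. The 20 immediate early and heat shock genes, which tissue digestion can induce, summed to 9672 CPM in cKO PD, 15561 in cHet PD, 27325 in cKO control and 20900 in cHet control. The marker list of neutrophils summed to 2340 CPM in cKO PD, 1875 in cHet PD, 619 in cKO control and 931 in cHet control, with 1, 3, 8 and 5 of its 15 genes at 0 in that order. Their part in the result was not tested. The makeup of the class moved too: cells were assigned by marker lists to a resident, a monocyte or an inflamed tissue state, the last led by Arg1, Spp1 and Cxcl3 among others. Resident cells numbered 19 of 107 phagocytes in cKO PD, 47 of 200 in cHet PD, 46 of 59 in cKO control and 35 of 48 in cHet control. Inflamed tissue cells numbered 15 in cKO PD and 114 in cHet PD, with none in cKO control and 1 in cHet control.

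Within resident cells alone a rise with PD was also seen for some of the genes. In cHet, 6 of 10 had intervals above 1 and 0 below, from 47 PD and 35 control cells. In cKO, 4 had intervals above 1 and 1 below, from 19 PD and 46 control cells. In cHet resident cells, Slc2a1 had 208 CPM in PD and 69.4 in control, a ratio of 3.0 (1.69 to 5.53), and Hk2 had 271 and 84.9 CPM, a ratio of 3.20 (1.92 to 5.50). In cKO resident cells, Pgk1 had 347 CPM in PD and 95 in control, a ratio of 3.66 (2.08 to 6.39), and Eno1, Pkm and Ldha also had intervals above 1. Hk2 was not among the 4 in these cells. Slc2a1 there had 80.1 CPM in PD and 76.0 in control, a ratio of 1.05 (0.353 to 2.65) from 6 and 24 UMIs. Pfkfb3 in cKO resident cells had 134 CPM in PD and 317 in control, a ratio of 0.422 (0.196 to 0.808). In cHet monocyte-state cells, 3 of 10 genes had intervals above 1 and 2 below, from 37 PD and 11 control cells.

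Epithelium split the pathway into genes that were higher and genes that were lower with PD. In cKO, 5 of 10 were called higher and 3 lower, where 6.72% of 12549 genes were called higher and 8.27% lower. In cHet, 4 were called higher and 3 lower, against 10.8% and 11.8% of 12746 genes. The medians over the 10 members were 0.49 in cKO and 0.35 in cHet, and those over all genes -0.04 in cKO and -0.07 in cHet. The uptake and trapping steps were higher: Hk2 had 124 CPM in cKO PD, 217 in cHet PD, 68.6 in cKO control and 67.8 in cHet control, ratios of 1.80 (1.70 to 1.91) in cKO and 3.21 (3.07 to 3.35) in cHet. Slc2a1 had 124 CPM in cKO PD, 157 in cHet PD, 72.5 in cKO control and 59.8 in cHet control, ratios of 1.71 in cKO and 2.63 in cHet. Pfkfb3 was low throughout but rose 3.38-fold in cKO and 5.41-fold in cHet. The neutrophil list summed to 1354 CPM in cKO PD, 97.4 in cHet PD, 296 in cKO control and 129 in cHet control epithelium, with 0, 0, 0 and 1 of its 15 genes at 0. S100a9, which neutrophils and inflamed epithelium can both make, had 494, 506, 26.7 and 15.5 CPM in that order, and the part of neutrophil RNA was not tested. Ldha had 726 CPM in cKO PD, 575 in cHet PD, 398 in cKO control and 362 in cHet control. Pgk1 passed the call in cKO (ratio 1.67, 1.63 to 1.71), while its log2 fold of 0.49 in cHet fell short of the size required. Thinned to 1000 UMIs per cell, the cKO log2 folds of Slc2a1 and Hk2 were 0.50 and 0.27, below the size called, while their cHet calls were kept; Ldha in cHet was at 0.48 with clusters of cells in place of the marker gate.

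The 3 genes called lower in PD epithelium were Pfkl, Aldoa and Gapdh, in both genotypes. Aldoa had 396 CPM in cKO PD, 232 in cHet PD, 642 in cKO control and 637 in cHet control, with ratios of 0.616 (0.598 to 0.634) in cKO and 0.364 (0.354 to 0.374) in cHet. Gapdh, the gene often used as a constant reference, had 490 CPM in cKO PD, 368 in cHet PD, 793 in cKO control and 819 in cHet control. Pfkl had 12.4 CPM in cKO PD, 8.80 in cHet PD, 33.8 in cKO control and 38.0 in cHet control. Both controls lay above both PD libraries for each of the 3. The gland and airway marker list without Ltf, 13 genes, differed in the same direction in epithelium. It summed to 142 CPM in cKO PD, 44.4 in cHet PD, 1519 in cKO control and 222 in cHet control. Aldoa was high in gland and airway cells, described last, and the part of their RNA in these differences was not tested. When clusters of cells replaced the marker gate, the cKO log2 folds of Aldoa and Gapdh were -0.39 and -0.34, below the size called; Aldoa there also missed it with 4 markers required (-0.56) and with folds centred on genes of like GC content (-0.52). Mitochondrial UMIs made up 6.43% of epithelial UMIs in cKO PD, 6.01% in cHet PD, 10.3% in cKO control and 9.20% in cHet control, and all 3 genes were still called lower in both genotypes with cells of at most 10% mitochondrial UMIs and with totals that leave those genes out. Under the same limit of 10%, 3 calls of higher genes were lost: Hk2 (0.50, against 0.77) and Pgk1 (0.54, against 0.73) in cKO and Ldha (0.53, against 0.65) in cHet.

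The epithelial layers did not all follow the class. In basal cells Hk2 had 116 CPM in cKO PD, 207 in cHet PD, 57.7 in cKO control and 45.8 in cHet control, a ratio of 4.51 (4.23 to 4.82) in cHet. Its suprabasal ratio in cHet was 2.41 (2.27 to 2.55). Ldha in basal cells had 658 CPM in cKO PD, 567 in cHet PD, 344 in cKO control and 311 in cHet control. In junctional-type cells, named from Odam, Slpi and others, Pgk1 reached 1155 CPM in cKO PD, 1160 in cHet PD, 1390 in cKO control and 1027 in cHet control. Ldha in those cells had 1036 CPM in cKO PD, 820 in cHet PD, 1166 in cKO control and 689 in cHet control, so PD and control overlapped for these genes in a layer where both stood high. Over the 10 genes, the PD to control interval there lay above 1 for 1 and below 1 for 7 in cKO. In cHet it lay above for 2 and below for 3. Basal cells had 6 above and 3 below in cKO, and 6 above and 4 below in cHet. Such counts ask only for an interval that excludes 1, which small differences can meet at high UMI counts. No share over all genes was computed for them. The junctional-type values rest on 490 cells in cKO PD, 513 in cHet PD, 56 in cKO control and 26 in cHet control. Basal cells numbered 2438, 3600, 4505 and 4403 in that order. Junctional-type cells rose to 11.7% of the epithelium in cKO PD and 8.41% in cHet PD, against 0.839% in cKO control and 0.362% in cHet control.

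In fibroblasts, 2 of 6 measured genes were called higher and 2 lower with PD in cKO, against 26.0% and 30.1% of 2748 genes. In cHet, 4 of 9 were called higher and 1 lower, against 22.6% and 23.6% of 4901 genes. The member medians were -0.00 in cKO and 0.42 in cHet, and those of all genes -0.05 and 0.01 in cKO and cHet; the cKO median spans members called both ways. Slc2a1 (61.8 CPM in cKO PD, 13.6 in cKO control), Pfkfb3 (72.6 and 15.3 CPM) and Eno1 (57.1 and 30.7 CPM) had cKO intervals above 1 but stayed under 50 UMIs and were not counted. Hk2 had the largest called fold in each genotype. It had 278 CPM in cKO PD, 392 in cHet PD, 34.1 in cKO control and 105 in cHet control, ratios of 8.15 (5.12 to 13.7) in cKO and 3.74 (3.08 to 4.56) in cHet. Ldha had 287 CPM in cKO PD, 221 in cHet PD, 95.5 in cKO control and 143 in cHet control, higher in PD in both. Aldoa was lower in both, with 157 CPM in cKO PD, 123 in cHet PD, 457 in cKO control and 357 in cHet control, a ratio of 0.345 in each genotype. With clusters in place of the gate the cHet log2 fold of Ldha was 0.18, against 0.60. Pgk1 was called higher in cHet (298 CPM in PD, 151 in control) and not in cKO (204 CPM in PD, 232 in control). The fibroblast markers, collagen genes among them, summed to 118513 CPM in cKO PD, 102541 in cHet PD, 38843 in cKO control and 39926 in cHet control, which takes a larger part of the total in PD. The trimmed-mean scaling moved the cKO folds by 0.30 and left Gapdh there at -0.38, no longer called.

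In endothelium fewer members were called higher with PD in cKO than in cHet. With PD in cKO, 1 of 7 genes was called higher and 3 lower, where 15.8% of 4509 genes were called higher and 17.4% lower; with PD in cHet, 5 of 9 were called higher and 2 lower, against 22.3% and 12.5% of 5386 genes. The member medians were -0.20 in cKO and 0.62 in cHet, and those of all genes 0.01 in cKO and 0.15 in cHet. Pfkfb3, whose product is known to drive glycolysis in sprouting vessels, had 169 CPM in cKO PD, 486 in cHet PD, 126 in cKO control and 133 in cHet control. Only the cHet PD library was high, with a ratio of 3.64 (2.92 to 4.59) in cHet and 1.34 (1.06 to 1.68) in cKO. Slc2a1 had 71.2 CPM in cKO PD, 67.6 in cHet PD, 169 in cKO control and 53.7 in cHet control, so the cKO control alone was high and the cKO ratio was 0.422 (0.313 to 0.562). Pgk1 was higher in both, at 248 CPM in cKO PD, 323 in cHet PD, 136 in cKO control and 158 in cHet control, and with each cell thinned to 1000 UMIs its log2 folds were 0.49 in cKO and 0.01 in cHet, neither called. Aldoa and Gapdh were lower in both: Aldoa had 132 CPM in cKO PD, 120 in cHet PD, 358 in cKO control and 311 in cHet control. Eno1 was called higher in cHet at the edge of its interval (1.00 to 3.31), and the thinned cells gave -0.18.

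T and NK cells could be compared only in cKO, where 2 of the 10 genes were measured. None was called higher and 1 lower, against 15.7% and 24.2% of 611 genes. Gapdh had 204 CPM in cKO PD and 390 in cKO control, a ratio of 0.523 (0.301 to 0.870) from 20 and 70 UMIs; centred on genes of like GC content, its log2 fold was -0.64 in place of -0.90 and not called. The member median was -0.53 over those 2 genes and -0.07 over all genes. With so few UMIs no broad statement on these cells can be made.

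**Figure D2:**
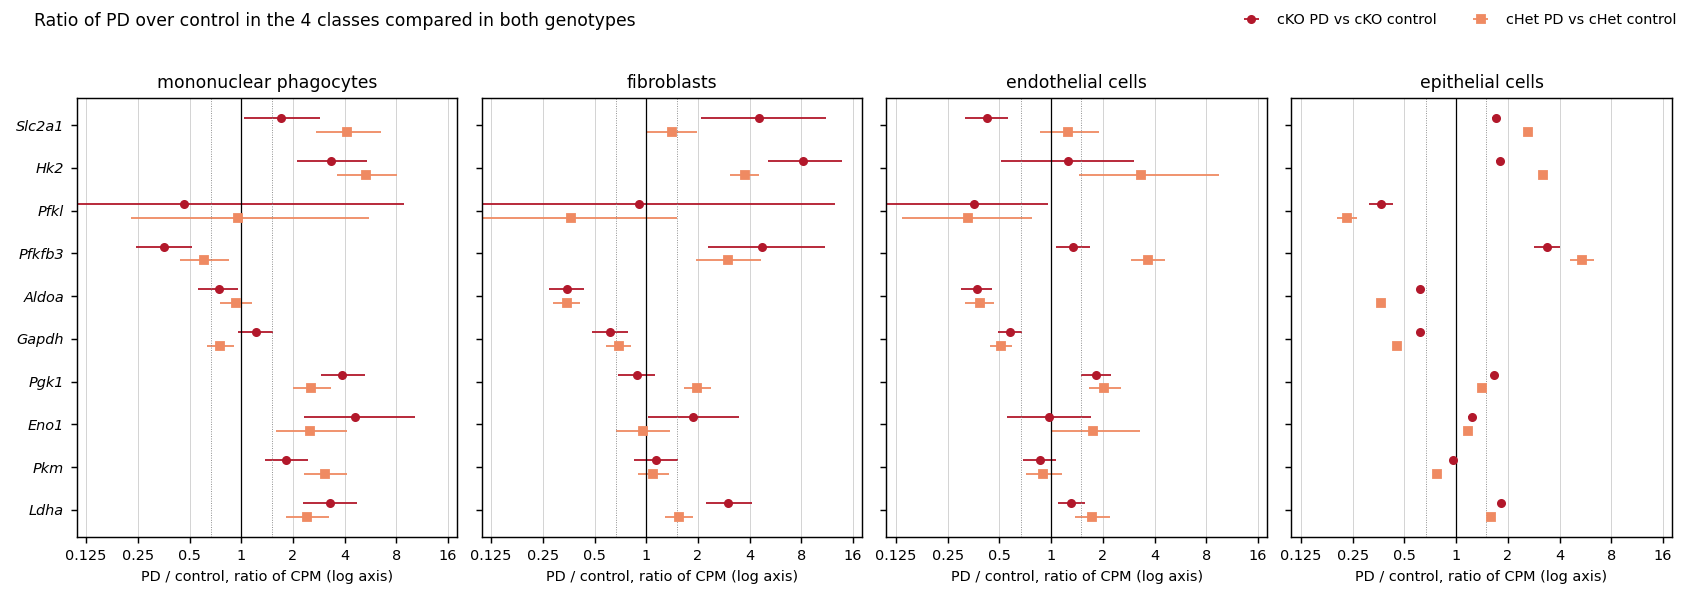
Ratio of CPM in PD to control (log axis) for each of the 10 genes in phagocytes, fibroblasts, endothelium and epithelium, with its exact 95% counting interval, cKO above cHet, and dotted lines at a 1.5-fold difference in either direction; some intervals of low-count genes run past the axis. Hk2 lies to the right of 1 in both genotypes in phagocytes (3.32 in cKO, 5.30 in cHet), while Aldoa lies to the left in fibroblasts, endothelium and epithelium.

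The 63 other genes of the pathway and its surroundings were read by the same rule, as 5 lists. In cKO phagocytes, 4 of 6 measured regulators and targets of hypoxia were called higher with PD and 0 lower, and in cHet 8 of 10 were called higher and 0 lower; of all genes, 31.0% were called higher in cKO and 25.9% in cHet. Hif1a was called higher in every class compared, with 453 CPM in cKO PD phagocytes, 685 in cHet PD, 98.2 in cKO control and 80.6 in cHet control. Its endothelial ratios were 2.99 in cKO and 4.38 in cHet and its epithelial ratios 3.92 and 3.47 in cKO and cHet. Slc16a1, which carries lactate and pyruvate across the membrane, rose 3.41-fold in cKO epithelium and 3.82-fold in cHet epithelium, and 5.03-fold in cHet endothelium. Gpi1, which converts glucose phosphate to fructose phosphate, was lower in PD: its ratio was 0.583 in cKO and 0.465 in cHet phagocytes, and 0.374 in cKO and 0.299 in cHet endothelium.

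Neighbouring steps did not move as 1 block. With PD, 31.0% of all genes were called higher and 24.6% lower in cKO phagocytes, and 25.9% and 18.8% in cHet phagocytes. In epithelium these shares were 6.72% and 8.27% in cKO and 10.8% and 11.8% in cHet. The counts of 1 in 3 or 1 in 4 for phagocytes below are near these shares. Among other transporters, isozymes and steps, 1 of 3 measured genes was called higher and 1 lower in cKO phagocytes and 4 of 6 higher and 1 lower in cHet phagocytes, while 3 were higher and 2 lower of 16 in cKO epithelium and 2 higher and 4 lower of 17 in cHet epithelium. Pgam1, the mutase between the products of Pgk1 and Eno1, was named after its values were seen: it had 464 CPM in cKO PD phagocytes, 724 in cHet PD, 125 in cKO control and 189 in cHet control, and 890, 708, 412 and 404 CPM in epithelium in the same order. The pentose phosphate list had 1 of 3 measured genes higher and 0 lower in cKO phagocytes, 1 of 4 higher and 0 lower in cHet phagocytes, and 3 of 6 lower in the epithelium of each genotype, with 0 higher in cKO and 1 in cHet. For the lactate and pyruvate list, 3 of 10 were higher and 0 lower in cKO epithelium and 2 of 10 higher and 0 lower in cHet epithelium. Of the 5 genes of gluconeogenesis, G6pc3 was lower in epithelium, at 7.12 CPM in cKO PD and 4.98 in cHet PD, against 31.9 in cKO control and 29.3 in cHet control.

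The second comparison set cKO against cHet under PD. In 6 classes, 5 gene and class pairs were called higher and 7 lower in cKO PD, of 51 measured. This contrast uses the same PD libraries as the comparisons above, so it is no separate support for them. In phagocytes 0 of 9 genes were called higher and 2 lower, where 15.0% of 3170 genes were called higher and 16.5% lower, so a share of 2 in 9 is near the background. The median was -0.40 over the members and 0.03 over all genes. The 2 genes were those of uptake and trapping: Slc2a1 had 109 CPM in cKO PD and 286 in cHet PD, a ratio of 0.381 (0.274 to 0.518), and Hk2 had 204 CPM in cKO PD and 413 in cHet PD, a ratio of 0.494 (0.389 to 0.622). With cells thinned to 1000 UMIs their log2 folds were -0.81 and -0.54, against -1.32 and -0.98, and neither was called. The other 7 measured members were not called. Pgk1 (541 CPM in cKO PD, 520 in cHet PD) and Gapdh (376 and 372 CPM) had ratios of 1.04 (0.890 to 1.22) and 1.01 (0.837 to 1.22). Pkm (340 CPM in cKO PD, 487 in cHet PD) and Aldoa (233 and 311 CPM) had intervals below 1, with ratios of 0.698 (0.577 to 0.839) and 0.749 (0.594 to 0.939), while those of Eno1 (0.737, 0.525 to 1.02) and Ldha (0.860, 0.706 to 1.04) included 1. Under trimmed-mean scaling 10 pairs over the 6 classes were called lower in place of 7.

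The states of the phagocytes differed between those 2 libraries. In cKO PD 70 of 107 cells were in the monocyte state and 15 in the inflamed tissue state, against 37 and 114 of 200 in cHet PD. The marker list of the inflamed tissue state summed to 7026 CPM in cKO PD and 23920 CPM in cHet PD phagocytes, and that of the monocyte state to 8666 and 3340 CPM. Slc2a1 was lower in cKO PD within each state: 117 CPM in cKO PD and 332 in cHet PD inflamed tissue cells (ratio 0.353, 0.140 to 0.739), and 80.1 CPM in cKO PD and 208 in cHet PD resident cells (0.385, 0.134 to 0.907). In monocyte-state cells it was 119 CPM in cKO PD and 197 in cHet PD, a ratio of 0.604 with an interval that includes 1 (0.355 to 1.04). Hk2 differed in that respect, with 451 CPM in cKO PD and 490 in cHet PD inflamed tissue cells (0.921, 0.597 to 1.37), while in monocyte-state cells it had 140 CPM in cKO PD and 270 in cHet PD (0.517, 0.323 to 0.828). These state values rest on 6 to 35 Slc2a1 UMIs in the cKO PD library. Cells with cell cycle markers made up 22.4% of phagocytes in cKO PD and 2.50% in cHet PD, and without them the log2 fold of Hk2 was -0.50 in place of -0.98, below the size called.

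Neutrophils had the most members called between the PD libraries, 6 of 9 in either direction. In cKO PD, 4 of 9 measured genes were called higher and 2 lower, where 34.7% of 3743 genes were called higher and 18.6% lower, so the number called is near the background; the member median of 0.27 lay beside 0.30 over all genes. Ldha had 1022 CPM in cKO PD and 295 CPM in cHet PD, a ratio of 3.46 (3.0 to 4.01). Aldoa had 233 CPM in cKO PD and 96.2 in cHet PD, Pgk1 had 580 and 265 CPM, and Gapdh had 465 and 260 CPM in that order. The 2 lower genes were Pfkfb3, at 129 CPM in cKO PD and 382 in cHet PD (ratio 0.338, 0.278 to 0.410), and Slc2a1, at 92.9 CPM in cKO PD and 170 in cHet PD. Eno1 (136 CPM in cKO PD, 111 in cHet PD), Pkm (403 and 350 CPM) and Hk2 (67.6 and 81.1 CPM) were not called.

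The neutrophils of the 2 libraries were not alike in their granule genes. S100a9, an abundant neutrophil protein gene, had 31620 CPM in cKO PD and 13428 CPM in cHet PD neutrophils, and the neutrophil marker list summed to 61629 CPM in cKO PD and 30410 CPM in cHet PD. A split made after these values were seen called a cell immature-type where more of the 3 granule genes Ltf, Ngp and Camp than of the 3 receptor genes Csf3r, Cxcr2 and Il1r2 were detected, and mature-type in the opposite case. It put 453 cells in the immature-type and 167 in the mature-type group in cKO PD, against 17 and 612 in cHet PD. Among immature-type cells, Ldha had 1180 CPM in cKO PD and 1213 CPM in cHet PD, a ratio of 0.973 (0.753 to 1.28). Among mature-type cells it had 435 CPM in cKO PD and 191 CPM in cHet PD, a ratio of 2.28 (1.70 to 3.05), and Aldoa, Gapdh and Pgk1 also had intervals above 1 there. Pfkfb3 within mature-type cells had 346 CPM in cKO PD and 418 CPM in cHet PD, a ratio of 0.828 (0.622 to 1.09), and in immature-type cells 65.4 CPM in cKO PD and 39.1 CPM in cHet PD from 60 and 2 UMIs. Slc2a1 in mature-type cells had 126 CPM in cKO PD and 183 CPM in cHet PD (0.689, 0.424 to 1.08).

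Depth moved with the neutrophil result as well. The median was 1403 UMIs per neutrophil in cKO PD and 960 in cHet PD. Among cells with at least 1501 UMIs, 342 in cKO PD and 58 in cHet PD, Ldha had 1089 CPM in cKO PD and 735 CPM in cHet PD, and its log2 fold of 0.56 in place of 1.76 was below the size called. Gapdh (0.41, against 0.82) and Slc2a1 (-0.42, against -0.81) were not called there either. The immediate early list summed to 5587 CPM in cKO PD and 12107 CPM in cHet PD neutrophils. The marker list of phagocytes summed to 185 CPM in cKO PD and 763 CPM in cHet PD, with 4 and 3 of 15 genes at 0, and that of epithelium to 2289 and 4380 CPM, with 0 of 18 at 0 in either. The gland and airway list summed to 5006 CPM in cKO PD and 634 CPM in cHet PD, of which Ltf gave 4984 and 631 CPM, and its other 13 genes summed to 22.3 and 2.75 CPM, with 7 and 11 of them at 0. Their part in the result was not tested.

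**Figure D3:**
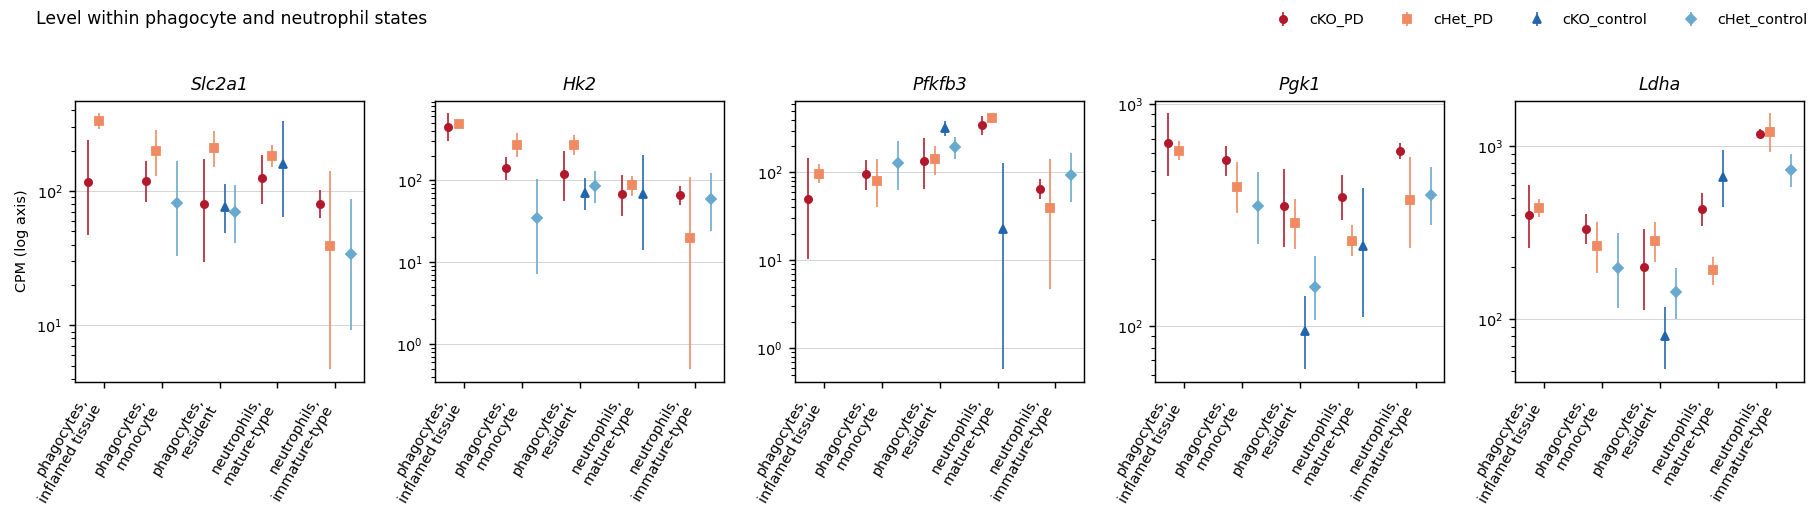
Level in CPM of Slc2a1, Hk2, Pfkfb3, Pgk1 and Ldha within 3 phagocyte states and 2 neutrophil types, by library, with exact 95% Poisson intervals, for states with at least 10 cells. Slc2a1 in inflamed tissue phagocytes lies at 117 CPM in cKO PD and 332 CPM in cHet PD, and Ldha is high in immature-type neutrophils of both PD libraries (1180 and 1213 CPM).

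In the other classes few genes differed between the PD libraries. In endothelium 0 of 9 were called higher and 2 lower, against 3.41% and 8.37% of 5362 genes; these were Pfkfb3, at 169 CPM in cKO PD and 486 in cHet PD (0.347, 0.290 to 0.414), and Hk2, at 12.6 CPM in cKO PD and 30.8 in cHet PD (0.410, 0.194 to 0.789). In epithelium 1 of 10 was called higher and 1 lower, against 2.67% and 2.75% of 11197 genes: Aldoa had 396 CPM in cKO PD and 232 in cHet PD (1.71, 1.65 to 1.77), and Hk2 had 124 CPM in cKO PD and 217 in cHet PD (0.569, 0.539 to 0.601). The gland and airway marker list summed to 1414 CPM in cKO PD and 75.7 CPM in cHet PD epithelium, of which Ltf, a gene that the neutrophil list also holds, gave 1272 and 31.3 CPM. The other 13 genes summed to 142 CPM in cKO PD, 44.4 in cHet PD, 1519 in cKO control and 222 in cHet control, with 6, 6, 2 and 4 of them at 0, and their part in the Aldoa difference was not tested. The Aldoa call was lost without the highest UMI totals (0.54) and in thinned cells (0.56). Hk2 was lower in each epithelial layer, with ratios of 0.561 in basal, 0.570 in suprabasal and 0.599 in junctional-type cells. In fibroblasts 0 of 9 were called higher and 0 lower, where 8.24% of 4200 genes were called higher and 21.6% lower. In T and NK cells 0 of 5 were called either way, where 5.82% of 1219 genes were called higher and 9.02% lower. The member medians in cKO PD over cHet PD were 0.02 in endothelium, 0.28 in epithelium, 0.01 in fibroblasts and -0.33 in T and NK cells, and those over all genes -0.06, 0.02, -0.18 and -0.08 in the same order.

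**Figure D4:**
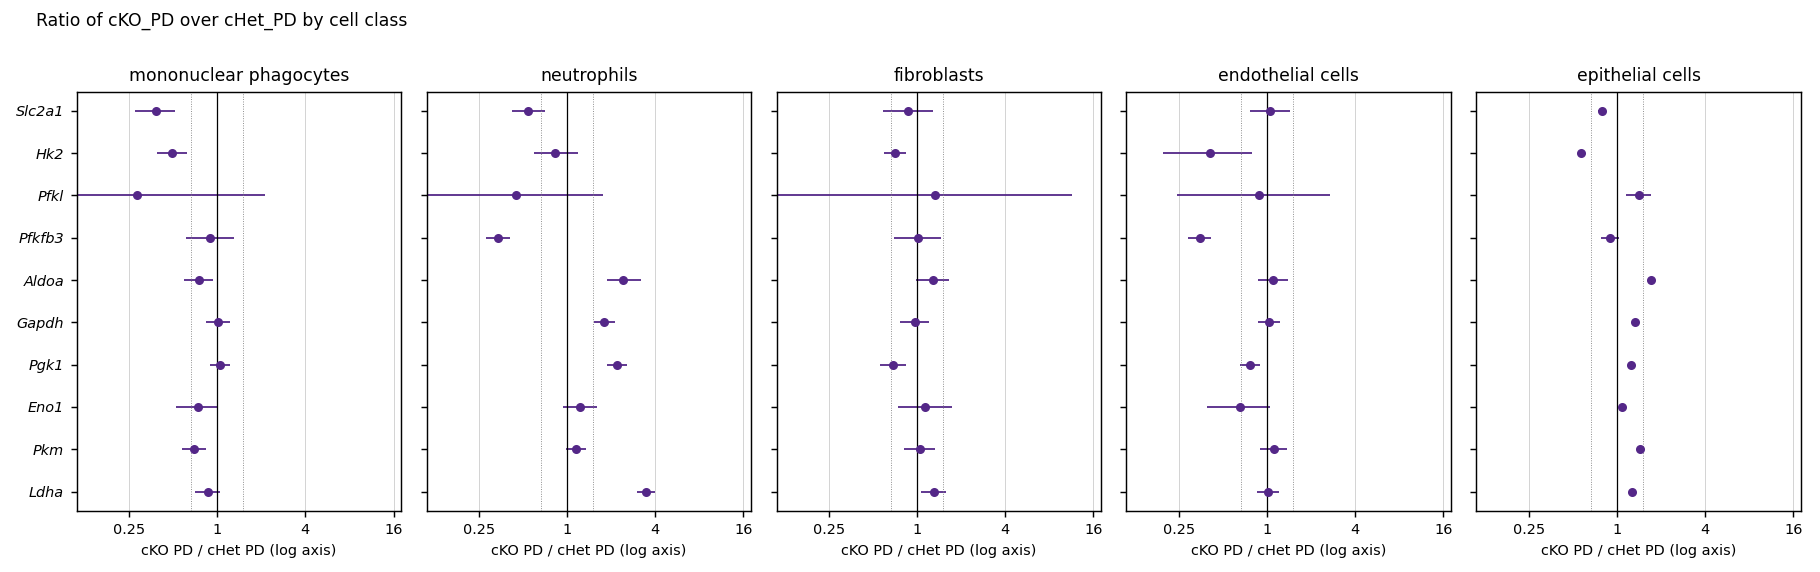
Ratio of CPM in cKO PD to cHet PD (log axis) for the 10 genes in 5 cell classes, with exact 95% counting intervals. Slc2a1 lies below 1 in phagocytes (0.381) and Pfkfb3 in neutrophils (0.338) and endothelium (0.347), while Ldha lies above 1 in neutrophils (3.46).

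Among the wider lists, the hypoxia list was called lower in cKO PD phagocytes for 6 of 10 measured genes and higher for 0, where 16.5% of all genes were called lower and 15.0% higher. Vegfa, which encodes a vessel growth factor, had 127 CPM in cKO PD and 890 CPM in cHet PD, a ratio of 0.143 (0.107 to 0.187), and Bnip3, a mitophagy receptor gene, had 24.9 CPM in cKO PD and 132 CPM in cHet PD. Hif1a itself had 453 CPM in cKO PD and 685 CPM in cHet PD (0.661). G6pdx, the first enzyme of the pentose phosphate route, went the other way, at 111 CPM in cKO PD and 50.6 CPM in cHet PD. In neutrophils 3 of 4 measured pentose phosphate genes were called higher in cKO PD and 0 lower, where 34.7% of all genes were called higher, led by Tkt at 210 CPM in cKO PD and 44.0 CPM in cHet PD. Fbp1, an enzyme of gluconeogenesis, had 381 UMIs in cKO PD and 20 UMIs in cHet PD epithelium (27.7 and 0.701 CPM), a ratio of 39.4 (25.2 to 65.3). The part of the gland and airway markers given above for this class in that value was not tested. In endothelium 0 of 14 hypoxia genes were called either way, where 3.41% of all genes were called higher and 8.37% lower.

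The control libraries were compared to see the genotypes without PD. In 4 classes, 3 pairs were called higher and 4 lower in cKO control, of 31 measured. Epithelium had 0 of 10 called either way, where 1.82% of 12834 genes were called higher and 0.849% lower, and its median was 0.05 over the members and 0.01 over all genes. In phagocytes 1 of 6 was called higher and 2 lower, against 12.1% and 9.50% of 1663 genes: Pfkfb3 had 260 CPM in cKO control and 170 in cHet control, Gapdh 312 and 495 CPM, and Ldha 101 and 158 CPM in that order. All 3 calls were lost with clusters in place of the gate, where the log2 folds were 0.37, -0.46 and -0.24. In fibroblasts 1 of 8 was called higher and 2 lower, against 10.2% and 16.6% of 4189 genes. Hk2 had 34.1 CPM in cKO control and 105 in cHet control fibroblasts, and Slc2a1 13.6 CPM in cKO control and 50.5 in cHet control from 8 and 63 UMIs. Pgk1 had 232 CPM in cKO control and 151 in cHet control, a direction that turned when cells were thinned to 1000 UMIs (log2 fold 0.59, against -0.12). In endothelium 1 of 7 was called higher and 0 lower, against 3.59% and 2.52% of 4369 genes: Slc2a1, a known marker of barrier-type vessels, had 169 CPM in cKO control and 53.7 in cHet control, a ratio of 3.14 (2.19 to 4.62) that was not called in thinned cells (log2 fold 0.69, against 1.49).

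The size of the PD change was then set side by side for the genotypes, as the log2 fold in cKO minus that in cHet with an interval of counting error. In phagocytes 5 genes were called higher in both and 1 lower in both, and in epithelium 4 higher in both and 3 lower in both. Slc2a1 changed less in cKO phagocytes (log2 fold 0.69 in cKO and 1.89 in cHet, difference -1.21, -2.01 to -0.41) and also in cKO epithelium (0.70 and 1.26 in that order, -0.56, -0.66 to -0.46). In endothelium the Slc2a1 difference was -1.42 (-2.01 to -0.84), and its cKO control was the high library. Hk2 changed less in cKO epithelium, at 0.77 in cKO and 1.55 in cHet (-0.78, -0.88 to -0.69), and Aldoa was lowered less there, at -0.69 in cKO and -1.42 in cHet (0.73, 0.68 to 0.79). The endothelial change of Pfkfb3 was 0.39 in cKO and 1.79 in cHet, a difference of -1.40 (-1.82 to -0.97). Intervals of the difference lay above 0 for 6 and below for 3 of 10 genes in epithelium, and for 2 and 3 in phagocytes. Fibroblasts had 4 above and 1 below, and endothelium 0 and 3. No share over all genes was computed for these counts. Pgk1 rose more in cKO in epithelium (0.24, 0.20 to 0.28) and phagocytes (0.56, 0.05 to 1.08), as did Ldha in epithelium (0.20, 0.15 to 0.24). In fibroblasts Hk2 changed by 2.71 in cKO and 1.81 in cHet (0.90, 0.31 to 1.49). Its control level was 34.1 CPM in cKO and 105 in cHet, and its PD level 278 and 392 CPM. Ldha changed there by 1.49 in cKO and 0.60 in cHet (0.89, 0.42 to 1.36), and Pgk1 by -0.18 and 0.94 (-1.12, -1.52 to -0.71). With 1 library per group these intervals do not include differences between animals, and the genotype effect cannot be told apart from a difference between libraries.

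The genes were also compared with each other over 24 sums of cells, 1 per class and library. These sums share libraries and depth, so the correlations describe them and carry no p-value. Pkm followed the mean of the other 9 most closely (Pearson r of log2(CPM + 10) 0.91), followed by Eno1 (0.85), Pgk1 (0.73) and Ldha (0.69). Slc2a1 (0.55) and Gapdh (0.50) came next, Pfkl (0.28), Hk2 (0.19) and Aldoa (0.10) followed it weakly, and Pfkfb3 ran against it (-0.42). By pair, Pgk1 and Ldha moved together (0.85), as did Aldoa and Gapdh (0.76), while Aldoa and Pfkfb3 ran in opposite directions (-0.68). Among 6351 other genes, those most like the mean of the members were Tuba4a (0.842), Fabp5 (0.817), Gltp (0.802), Ywhaz (0.770), Ckap2l (0.765), Gclm (0.756), Txn1 (0.755) and Arg1 (0.751). Tuba4a encodes a tubulin, Fabp5 a fatty acid carrier, Gclm a subunit of the enzyme that starts glutathione synthesis and Txn1 thioredoxin.

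Outside the main classes, cells carrying gland and airway markers had the highest levels, with a sum over the 10 genes of 14559 CPM in cKO PD (234 cells), 12714 CPM in cKO control (234 cells) and 25449 CPM in cHet control (60 cells). Aldoa had 3444 CPM in cKO PD, 5231 in cKO control and 10763 in cHet control, and Slc2a1 had 567, 106 and 232 CPM in that order. The cHet PD library held only 10 such cells, and the leading genes of the class differed between libraries, so no comparison was made.

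How reads that match several places were counted is not given in the sources used here, and Gapdh, Pgk1, Eno1, Ldha and Aldoa have close copies in the mouse genome. The copy Eno1b held 65 to 264 UMIs per library, where Eno1 held 5011 to 9789. The symbol Aldoa covered a pair of identifiers, the other with 0 to 4 UMIs per library, and they were summed. On the mm10 build, in GENCODE M21, the genes lie at chr4:119108711-119137983 (Slc2a1), chr6:82725025-82774454 (Hk2), chr10:77986947-78010083 (Pfkl), chr2:11471433-11554077 (Pfkfb3), chr7:126795234-126800751 (Aldoa), chr6:125161715-125166467 (Gapdh), chrX:106187100-106203699 (Pgk1), chr4:150236721-150248879 (Eno1), chr9:59656368-59679375 (Pkm) and chr7:46841475-46855627 (Ldha).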

How the data were processed

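Single cells of mouse gingiva were profiled in 4 libraries, 1 per genotype and treatment. What the authors deposited is a matrix of raw UMI counts for each library. The submitters' processing notes name fastp, STARsolo 2.7.10a and the mm10 build, without their order. The labels' protocols describe BD Rhapsody whole-transcriptome libraries and a description label names 10x Genomics; the barcodes have 27 bases. No column of counts was left unmatched to a sample.

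Each cell was scored on 15 lineage marker lists and took the highest, with at least 3 markers detected; a cell whose next unrelated lineage scored above 0.6 of the top was set aside as mixed. No doublet caller was run, and the alternative without the top 5% of UMI totals bears on doublets. Counts were summed per class and library (Python 3.11.15, numpy 2.4.6, pandas 2.3.3) and given as CPM with exact Poisson 95% intervals; ratios have exact conditional binomial intervals (scipy 1.17.1), and the difference of PD changes a normal approximation of log counts. Intervals cover counting error only. Classes under 40 cells were not compared, and pericytes, smooth muscle and gland cells are given as levels only. Clusters came from scanpy 1.11.5 and trimmed-mean factors from edgeR 4.0.16 in R 4.3.3. The call was also run on simulated counts with set folds, which hold counting error only and say nothing of differences between animals or libraries.

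The genes named are the 10 members, in the wider lists the largest folds each way per class (at most 2), and the 8 genes most like the members. Members, lists, the neutrophil split and alternatives were chosen with earlier results of these data known. Promoter windows are from RefSeq, gene positions from GENCODE M21.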

Additional observations from a re-analysis of the deposited data

How the results depend on the processing

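No paired analysis was possible because the libraries are single, 1 for every genotype and treatment. The 68 called gene and class pairs were recomputed under 12 alternatives, of which centring on genes of like GC content was chosen after seeing the data. Of 814 values (2 more could not be computed), 728 kept direction and call, 84 kept direction but missed the call and 2 reversed. Adding 1 CPM in place of 10 and dropping the minimum of UMIs cannot undo a call. Their 68 values each are among the 728 and say nothing of stability. In all 12 alternatives, 24 pairs kept their call. Both reversals came from thinning each cell to 1000 UMIs: Eno1 in endothelium of cHet PD against cHet control (-0.18, against 0.62) and Pgk1 in fibroblasts of cKO control against cHet control (-0.12, against 0.59). Thinning also left fewer pairs called: with PD, 11 in place of 19 higher in cHet, and in cKO 5 in place of 13 higher and 5 in place of 10 lower. Between genotypes, thinning left 4 in place of 7 lower in cKO PD, and in the controls 1 in place of 3 higher and 0 in place of 4 lower. Thinned sums hold fewer UMIs and the calls need 50, but some folds also shrank. The log2 fold of Hk2 in cKO epithelium with PD went from 0.77 to 0.27, and that of Pgk1 in cHet endothelium from 0.99 to 0.01. Others grew while the call was lost, such as Hk2 in cKO phagocytes with PD (1.58 to 2.48). The part of each in the lost calls was not tested. The common floor of 1501 UMIs left 3 in place of 5 higher in cKO PD against cHet PD. Clusters in place of the marker gate gave 10 in place of 5 there, and 2 in place of 4 lower between the controls. Without the highest UMI totals, 1 in place of 4 was lower between the controls. The cause of the cluster and UMI-total changes was not tested. Trimmed-mean scaling moved log2 folds by 0.35 in cHet phagocytes with PD, 0.30 in cKO fibroblasts with PD and -0.30 in phagocytes of cKO PD against cHet PD, and turned no called direction.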
